A study of Mus musculus with 6 samples.

Results

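The 10 genes described here encode the DNA methyltransferases Dnmt1, Dnmt3a and Dnmt3b, the partner of Dnmt1 called Uhrf1, the methylcytosine oxidases Tet1, Tet2 and Tet3, and the Polycomb proteins Ezh2, Suz12 and Eed. They were chosen by symbol, and each of the 10 symbols matched 1 Ensembl identifier among the 26128 genes listed. All 10 passed the filter on low counts, which kept 14671 genes for testing. Their RNA was measured by bulk RNA sequencing in double negative T (DNT) cells, T cells that carry CD3 but neither CD4 nor CD8. The cells had been converted in culture, with mature dendritic cells of DBA/2 mice and IL-2, from CD4+CD25- T cells of C57BL/6 mice and sorted as CD3+NK1.1-CD4-CD8-. The labels give the tissue as spleen and the stage as adult, while the methods name lymph nodes beside spleens and give no age. Both groups were then stimulated with anti-CD3/CD28 beads for 48 h, either without further cytokine (Control, 3 libraries) or with the alarmin IL-33 at 50 ng/ml (IL-33, 3 libraries). Nothing in the labels or methods says that the 3 libraries of a group came from separate mice or cultures, so p-values measure the spread between these libraries, which may be technical.

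DNA methylation in mammals is set on CG pairs by Dnmt3a and Dnmt3b and is copied onto each new strand at replication by Dnmt1, which Uhrf1 brings to sites where only the old strand is methylated. Tet enzymes oxidise methylcytosine and so start its removal. Polycomb repressive complex PRC2, built on Eed and Suz12 with Ezh2 or its paralog Ezh1 as the enzyme, methylates a lysine of histone H3 at silenced genes. In T cells these systems are known for keeping lineage and cytokine genes silent, among them Cd4, Ifng and Il13, and Dnmt1, Uhrf1 and Ezh2 are known to be high in cycling cells.

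Genes of the replication phase often carry E2F words near their start, and the promoters of the members, 300 bases from 250 before to 50 after the start in RefSeq (GRCm38.p6), were searched for TTTCCCGC, TTTGGCGC, TTTCGCGC and TTTGCCGC on both strands. All 10 members matched the promoter table, with 15 promoters in all, and 4 of the 15 (26.67%) held at least 1 word, beside 744 of all 32851 promoters (2.265%). Member promoters were also rich in CG pairs, with a median of 30 against 7 over all promoters, and of the 3837 promoters with at least 30 CG pairs 5.056% held a word. Some member promoters have fewer than 30 CG pairs, so this share and the 26.67% cover unlike sets. The windows around all 5 words found are shown, which lie in Dnmt1, Uhrf1, Ezh2 and Suz12. The promoters of the other 6 members held none, those of Dnmt3a and Eed, which were also lower with IL-33, included. Each is read on the strand of its gene, with the word in capitals. No words overlapped in them.
Dnmt1, chr9:20952824-20952853, minus strand, non-coding exon sequence in GENCODE M21, word from base -219 with the start as 0, as the reverse complement of TTTCGCGC: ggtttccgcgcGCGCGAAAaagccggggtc
Dnmt1, chr9:20952574-20952601, minus strand, non-coding exon sequence, word from base 33 in the same promoter: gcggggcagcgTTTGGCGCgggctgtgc
Uhrf1, chr17:56304117-56304146, plus strand, no exon, word from base -185: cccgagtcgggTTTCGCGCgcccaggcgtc
Ezh2, chr6:47595009-47595038, minus strand, non-coding exon sequence, word from base 3: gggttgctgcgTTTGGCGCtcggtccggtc
Suz12, chr11:79992876-79992905, plus strand, no exon, word from base -219: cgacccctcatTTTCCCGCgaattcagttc
A word is a match of letters in a window and not a measured site.

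With IL-33, RNA of the maintenance pair Dnmt1 and Uhrf1 fell by 23.1% and 29.0%, and RNA of the PRC2 core fell by less. In all, 6 of the 10 members were lower at an adjusted p under 0.05 and 0 were higher, while 4 did not pass. Libraries were compared by the quasi-likelihood test of edgeR, with p-values adjusted by the Benjamini-Hochberg method across the 14671 genes, and adjusted p below refers to it unless another tool is named. Over all genes, 13.9% passed as lower and 13.6% as higher, so the members that passed went one way where all genes were split evenly. The members were chosen with earlier results of these data known, so this difference in direction describes them and is not a test. By the fold change of 1.5 that the study used as its second threshold, 0 of the 10 members passed in either direction, beside 4.87% of all genes. The groups did not overlap in 5 members as lower and in 2 as higher, while among all genes this held for 19.5% and 19.4%. On the log2 scale the 10 members had a median change of -0.15, and all genes one of -0.00063. In bulk RNA, fewer cells that express a gene and less RNA of it per cell cannot be told apart.

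**Figure D1:**
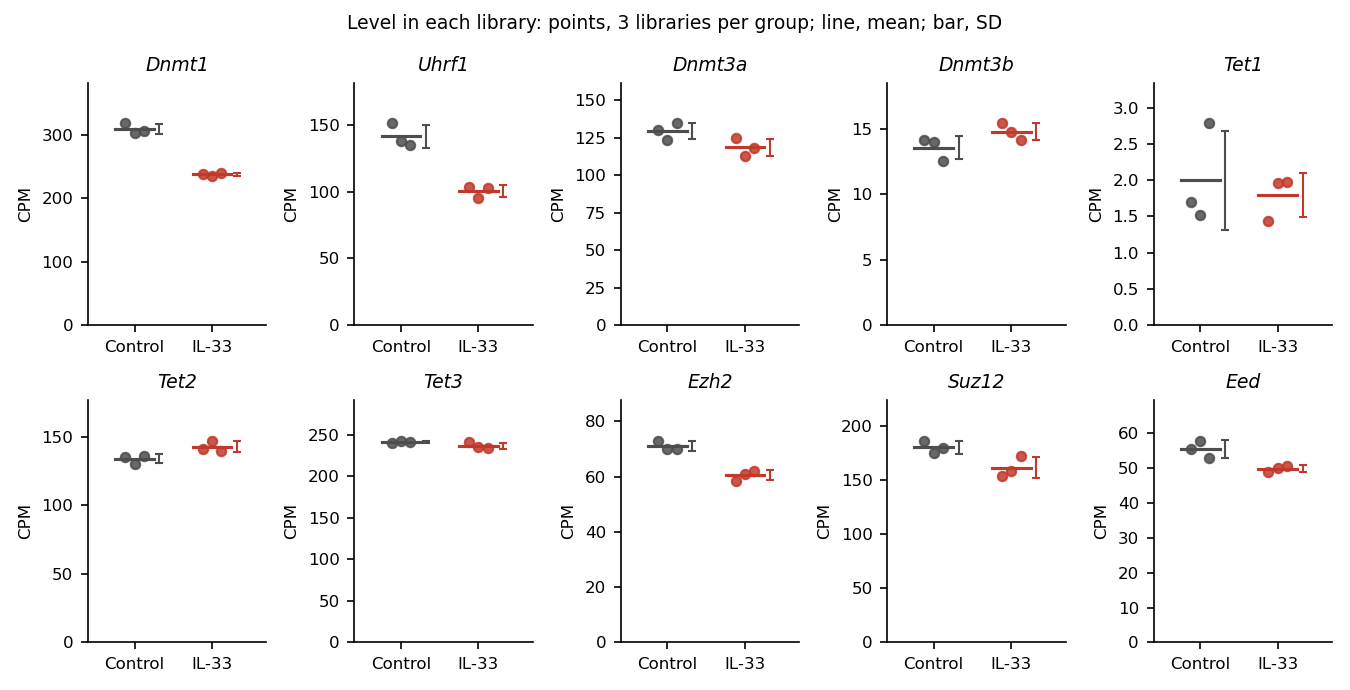
Level of each of the 10 genes in counts per 1000000 counts of the TMM-scaled library (CPM, linear axis from 0) in 3 Control and 3 IL-33 libraries, with points for libraries, a line for the mean and a bar for the SD. In the panels of Dnmt1, Uhrf1, Ezh2, Suz12 and Eed all IL-33 points lie under all Control points, and in those of Dnmt3b and Tet2 they lie above.

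Dnmt1 (ENSMUSG00000004099, chr9:20907209-20959888, GRCm38) is the maintenance methyltransferase. It had 318, 303 and 306 CPM in the Control libraries and 238, 234 and 240 CPM in the IL-33 libraries. All IL-33 values lay below all Control values, and the gap was several times the spread within either group. The mean fell from 309 ± 8.15 to 238 ± 2.76 CPM (SD, n = 3), a log2 fold change of -0.38 with a standard error (SE) of 0.032 and an edgeR adjusted p of 6.4e-19. Its counts ran from 4916 to 6752 in a library.

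Uhrf1 (ENSMUSG00000001228, chr17:56303321-56323486) binds hemimethylated CG pairs and recruits Dnmt1. Its level was 151, 138 and 135 CPM without and 103, 94.8 and 103 CPM with IL-33. The groups did not overlap. Of the 10 members it had the largest log2 fold change in size, -0.49 (SE 0.041, edgeR adjusted p 6.6e-18), with a 95% interval from -0.58 to -0.41 that does not reach the size of the 1.5-fold threshold, 0.585. Uhrf2, its paralog, which also binds methylated DNA, moved the other way, from 106 ± 5.22 to 126 ± 3.21 CPM, a log2 fold change of 0.25 (SE 0.040, edgeR adjusted p 1.9e-07). All 3 IL-33 libraries were above all 3 Control libraries for Uhrf2.

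Of the de novo methyltransferases, Dnmt3a (ENSMUSG00000020661, chr12:3806007-3914443) had 130, 124 and 135 CPM in Control and 124, 113 and 118 CPM with IL-33. The groups touched, with the highest IL-33 library above the lowest Control library. The log2 fold change was -0.13 (SE 0.040, edgeR adjusted p 0.0105). The adjusted p rose to 0.111 when Control replicate 3 was left out and to 0.131 when IL-33 replicate 2 was. The call for Dnmt3a held in 10 of 12 alternative fits, with the same direction in all 12, and depended on which libraries were kept. Dnmt3b (ENSMUSG00000027478, chr2:153649450-153687730) had 14.13, 14.02 and 12.59 CPM in Control and 15.44, 14.78 and 14.18 CPM with IL-33. Every IL-33 library was above every Control library, by little, and the log2 fold change of 0.12 did not pass (95% interval -0.082 to 0.33, edgeR adjusted p 0.412). Dnmt3l, which stimulates the de novo enzymes in germ cells, was under the filter, at means of 0.129 and 0.142 CPM, near the level that 3 counts give in these libraries (0.134 to 0.148 CPM).

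None of the 3 Tet genes passed the test. Tet3 (ENSMUSG00000034832, chr6:83362373-83459084) had 240, 243 and 241 CPM in Control and 241, 235 and 235 CPM with IL-33. Its groups overlapped, and the 95% interval of its log2 fold change, -0.091 to 0.038, was narrow around 0 (edgeR adjusted p 0.593). Tet2 (ENSMUSG00000040943, chr3:133463679-133545139), whose loss is common in T cell lymphoma, had 135, 130 and 136 CPM in Control and 141, 147 and 140 CPM with IL-33. All IL-33 values were higher, and the log2 fold change was 0.091 (95% interval 0.016 to 0.17, edgeR adjusted p 0.0627). Of 12 alternative fits 1 passed, the one without IL-33 replicate 3 (edgeR adjusted p 0.0444). The adjusted p was 0.121 with DESeq2 and rose to 0.262 with edgeR without Control replicate 2. Tet1 (ENSMUSG00000047146, chr10:62804570-62908996) was barely present, with 36, 31 and 61 counts in Control and 31, 41 and 44 counts with IL-33. Its interval ran from -0.70 to 0.37 on the log2 scale (edgeR adjusted p 0.706), and at this depth a change of the size seen in Dnmt1 was not detectable for it.

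The 3 core subunits of PRC2 were all lower with IL-33. Ezh2 (ENSMUSG00000029687, chr6:47530139-47595341), the methyltransferase, had 73.1, 69.9 and 70.1 CPM in Control and 58.6, 61.1 and 62.1 CPM with IL-33. The groups were apart, the mean fell from 71.0 ± 1.77 to 60.6 ± 1.82 CPM, and the log2 fold change was -0.23 (SE 0.048, edgeR adjusted p 6.8e-05). Suz12 (ENSMUSG00000017548, chr11:79993106-80034123), the scaffold, had 187, 175 and 180 CPM against 154, 159 and 172 CPM. The highest IL-33 library came close to the lowest Control library, and the log2 fold change was -0.16 (SE 0.037, edgeR adjusted p 4.3e-04). Eed (ENSMUSG00000030619, chr7:89954654-89980983), which binds the mark that PRC2 makes, had 55.5, 57.8 and 52.7 CPM against 48.9, 49.9 and 50.7 CPM. The log2 fold change of Eed was -0.15 (SE 0.054, edgeR adjusted p 0.0271), but the call was lost with DESeq2 (adjusted p 0.0766) and when a single library was left out, which gave 0.0554 for Control replicate 1, 0.158 for Control replicate 2, 0.111 for IL-33 replicate 1 and 0.0623 for IL-33 replicate 2. Dnmt3a, Eed, Ezh2, Suz12 and Tet2 each share some exon sequence with a gene on the opposite strand. Those partner genes had between 1 and 115 counts over all 6 libraries, and whether the counting used strand is not given in the sources used here.

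Ezh1, the paralog that can take the place of Ezh2 in PRC2, rose while Ezh2 fell. It went from 113 ± 1.18 to 137 ± 2.17 CPM, a log2 fold change of 0.28 (SE 0.039, edgeR adjusted p 1.4e-09), and its groups did not overlap. The ratio of Ezh2 to Ezh1 per length (CPM per kb of exon) was -0.51 ± 0.021 on the log2 scale in Control and -1.03 ± 0.061 with IL-33, and the 3 libraries of each group lay apart. The difference of -0.51 had a two-sided exact permutation p of 0.1, the smallest that 3 libraries against 3 allow, and 0.14 after Benjamini-Hochberg adjustment over the 7 ratios computed. With the length of the longest transcript in place of all exons the level of Ezh2 was 0.949 of that of Ezh1 in Control and 0.665 with IL-33, and with all exons 0.701 and 0.491.

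**Figure D2:**
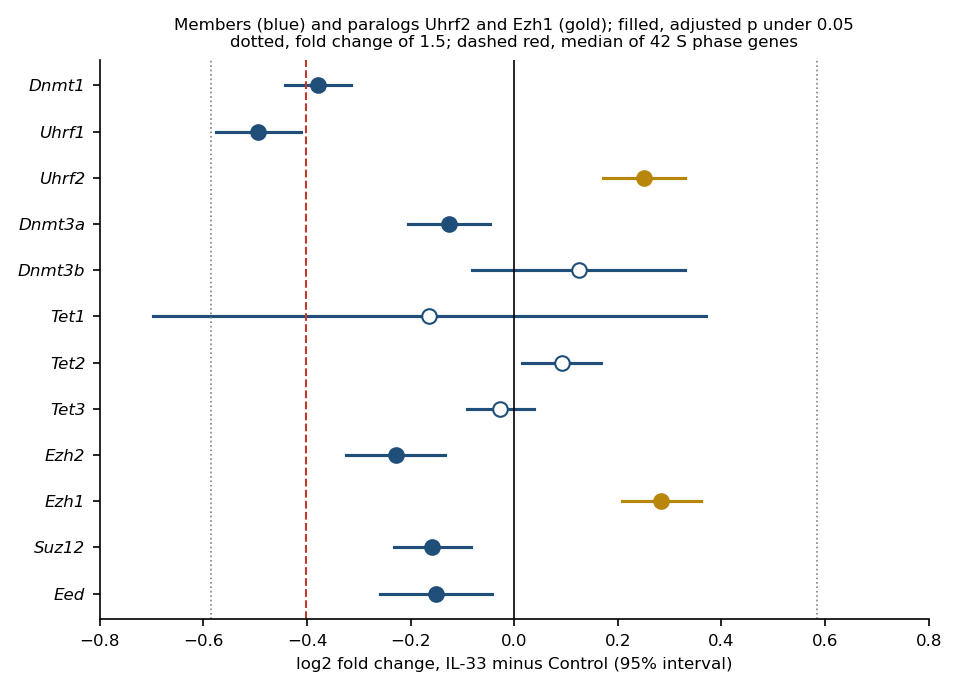
Log2 fold change (IL-33 minus Control) with its 95% interval for the 10 members in blue and the paralogs Uhrf2 and Ezh1 in gold, with filled points for an adjusted p under 0.05, dotted lines at the 1.5-fold threshold and a dashed red line at the median of 42 S phase genes. Dnmt1 lies near the S phase median and Uhrf1 beyond it, the PRC2 core lies between it and 0, and both paralogs lie on the other side of 0.

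The other 6 ratios moved less. Dnmt3a to Dnmt3b changed by -0.25, Dnmt1 to Uhrf1 by 0.12 and Tet2 to Tet3 by 0.12 on the log2 scale, with groups that did not overlap in each (exact permutation p 0.1, adjusted 0.14). Within the core of PRC2, Ezh2 to Suz12 changed by -0.070 (exact permutation p 0.1, adjusted 0.14) and Ezh2 to Eed by -0.078 (exact permutation p 0.3, adjusted 0.35). The groups overlapped for Ezh2 to Eed and for Tet2 to Tet1, which changed by 0.21 (exact permutation p 0.6, adjusted 0.60).

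Per length, over all exons, Dnmt1 was the most abundant member in Control at 41.9 RPKM (CPM per kb of exon), above 92.3% of the genes tested. Suz12 (36.5 RPKM) and Uhrf1 (33.2 RPKM) followed, then Tet3 and Eed, both at 14.5 RPKM with overlapping ranges, and Ezh2 at 10.6 RPKM. Tet2 (7.94 RPKM) and Dnmt3a (7.78 RPKM) also overlapped each other, and Dnmt3b stood at 2.66 RPKM. Tet1 was last at 0.129 RPKM, above only 2.25% of the genes tested. The order depends in part on the transcripts assumed. With the longest transcript, Suz12 and Uhrf1 overlapped (41.3 and 39.4 RPKM), Eed and Ezh2 did too (26.8 and 25.5 RPKM), and Tet3 came below both at 22.1 RPKM. On both lengths Dnmt1 was first, with a range apart from the next gene, and Dnmt3b and Tet1 were last.

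Partners of the DNA methylation enzymes did not move as 1 group. Of 16 partners and erasers 14 could be tested, of which 3 were higher, 3 lower and 8 did not pass, with a median log2 fold change of 0.049. For this list and each list below, the shares over all genes were 13.9% lower and 13.6% higher. The 6 calls became 3 with DESeq2 and 3 without IL-33 replicate 2. Hells, a remodeller that opens chromatin for DNA methylation, fell from 67.1 ± 2.75 to 45.8 ± 1.08 CPM (log2 fold change -0.55, edgeR adjusted p 7.4e-16), and its activator Cdca7 fell with it (-0.31, edgeR adjusted p 0.016). Both are also in the list of S phase genes. The glycosyltransferase Ogt, which binds Tet proteins, rose from 730 ± 2.54 to 814 ± 24.7 CPM (log2 fold change 0.16, edgeR adjusted p 3e-07). Cxxc4, which can lower Tet2 protein, was under the filter with a mean of 0 CPM in Control and 0.015 CPM with IL-33.

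Among the 10 genes for proteins that read methylated DNA or share a domain with such readers, 1 was higher, 4 were lower and 5 did not pass, with a median log2 fold change of -0.018. Mbd4, a glycosylase that repairs deaminated CG sites, fell past both thresholds, from 20.1 ± 1.79 to 13.4 ± 1.09 CPM (log2 fold change -0.59, edgeR adjusted p 3.7e-07). It lies so near the fold threshold that it fell under when Control replicate 1 or 2 or IL-33 replicate 3 was left out. Mbd6 was lower by -0.21 and the zinc finger reader Zbtb38 higher by 0.18 on the log2 scale (edgeR adjusted p 2.2e-04 and 3.3e-06).

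Of the 10 other PRC2 subunits, 2 were higher, 4 lower and 4 did not pass, with a median of -0.12. Phf19, an accessory subunit that guides PRC2 to chromatin, fell past both thresholds from 20.6 ± 3.23 to 13.4 ± 0.111 CPM (log2 fold change -0.62, edgeR adjusted p 1.5e-07). Control replicate 1 was the highest of its libraries at 24.3 CPM, and without it the log2 fold change was -0.49. The histone binding subunit Rbbp7 fell by 0.23 on the log2 scale (edgeR adjusted p 2.4e-07). Rbbp4 and Mtf2 also passed as lower, and Phf1, the relative of Mtf2 and Phf19, passed as higher beside Ezh1. Rbbp7, Mtf2 and Phf1 share exon sequence with expressed genes on the opposite strand (Txlng over 174 bases, Tmed5 over 395 and Cuta over 1370), so reads of these pairs may not be told apart.

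PRC1, the second Polycomb complex, ubiquitinates a histone and binds the mark of PRC2 through its Cbx subunits. Of its 24 genes 23 could be tested, of which 1 was higher, 8 lower and 14 did not pass, with a median log2 fold change of -0.075. Among all genes 13.6% passed as higher and 13.9% as lower. Cbx2 had the largest change, from 9.33, 10.1 and 8.62 CPM to 4.70, 4.20 and 4.77 CPM. Its groups were far apart, with a log2 fold change of -1.04 (SE 0.14, edgeR adjusted p 3.2e-09), and it was the only PRC1 gene of the 23 past both thresholds. Cbx6 (-0.29) and Phc2 (-0.26) were next by adjusted p (1.5e-07 and 1.8e-07, edgeR), and Cbx7, Cbx8, Bmi1, Pcgf6 and Kdm2b also passed as lower. The enzymes of PRC1, Ring1 and Rnf2, did not pass, with log2 fold changes of 0.01 and -0.08. Cbx7, Kdm2b and Rnf2 share exon sequence with expressed genes on the opposite strand.

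Of 7 genes for enzymes that oppose Polycomb or for cofactors of such enzymes, 1 was higher, 1 was lower and 5 did not pass, with a median of -0.016. Kdm6b, which removes the mark of PRC2, fell from 44.1 ± 0.546 to 35.7 ± 2.42 CPM (log2 fold change -0.31, edgeR adjusted p 4.4e-05). Its relative Kdm6a was at 0.12 on the log2 scale (edgeR adjusted p 0.037). That call was lost with DESeq2 (adjusted p 0.112), with limma-voom (0.0520), in edgeR without a filter (0.0692) and with the replicate block (0.0538). It was also lost without any 1 of 5 libraries, all but Control replicate 2. Bap1, which removes the mark of PRC1, did not pass (0.06, edgeR adjusted p 0.38).

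**Figure D3:**
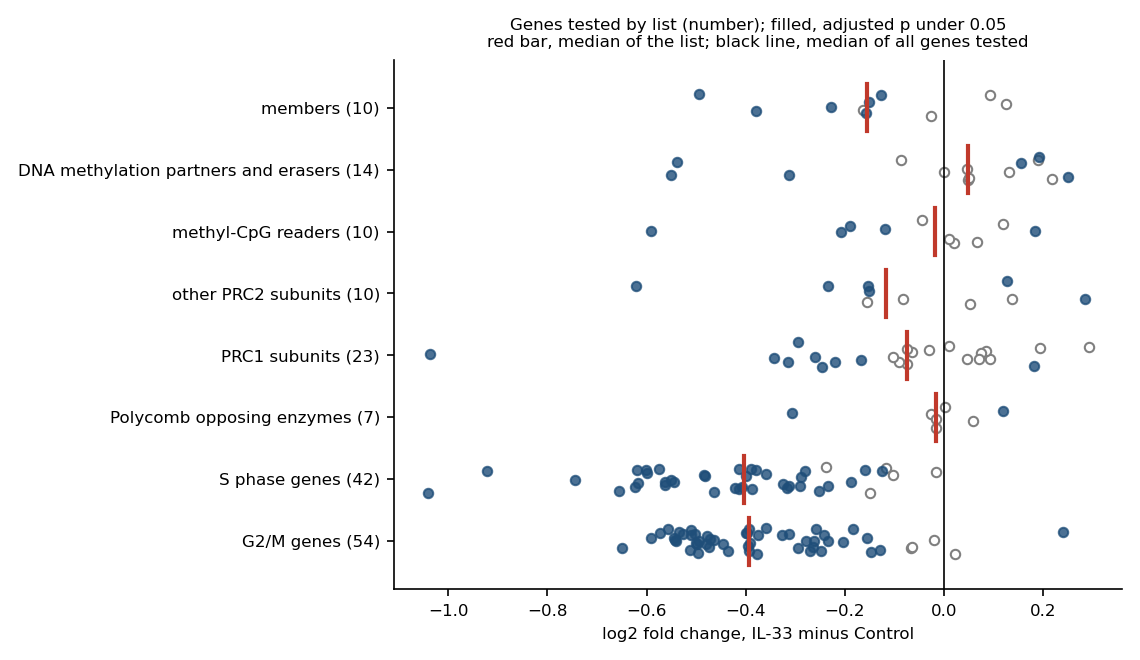
Log2 fold change (IL-33 minus Control) of every tested gene in 8 lists, with filled points for an adjusted p under 0.05, a red bar for the median of each list and a black line for the median of all genes. The 5 lists of DNA methylation and Polycomb partners scatter on both sides of the line, the members lie mostly to its left, and nearly all S phase and G2/M genes lie to its left.

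Genes that DNA methylation or Polycomb are known to silence were looked at next. Of 16 germline genes silenced by DNA methylation 2 had enough counts, Brdt (2.49 and 3.01 CPM) and Ddx4 (0.390 and 0.513 CPM), and neither passed with edgeR. At an unadjusted p under 0.05 the number was 0 as well, and with adjusted p from DESeq2 it was also 0. No germline gene listed had a group mean above 3.01 CPM, and 7 were not found in the table. Of 20 developmental genes silenced by Polycomb 4 were tested, and 7 were not found in the table.

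Of these 4, the neighbouring cell cycle inhibitor genes Cdkn2a and Cdkn2b rose past both thresholds. Cdkn2a had 12.3, 10.7 and 11.3 CPM in Control and 17.3, 18.3 and 18.6 CPM with IL-33, a log2 fold change of 0.66 (SE 0.10, edgeR adjusted p 8.8e-08). Cdkn2b had 12.8, 14.3 and 12.3 CPM against 20.8, 23.8 and 18.0 CPM, a log2 fold change of 0.67 (SE 0.099, edgeR adjusted p 2.1e-08), which was 0.56 without IL-33 replicate 2. The IL-33 libraries were above the Control libraries for both. The homeobox gene Lhx2 went the other way at a low level, from 2.58 to 1.49 CPM (log2 fold change -0.79, edgeR adjusted p 0.018). That call was lost with DESeq2 (adjusted p 0.0927), without Control replicate 3 (0.0593) and without IL-33 replicate 2 (0.229, log2 fold change -0.48). Hoxb4 did not pass.

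Among 12 T cell genes known to be under DNA methylation or Polycomb control, 11 were tested, of which 4 were higher, 4 lower and 3 did not pass. The cytokine genes Il13 (72.2 ± 2.17 to 143 ± 7.54 CPM) and Ifng (42.7 ± 4.03 to 83.2 ± 2.50 CPM) rose past both thresholds, with log2 fold changes of 0.99 and 0.96 (edgeR adjusted p 3.2e-39 and 4.1e-29). The regulator gene Prdm1 passed as higher by 0.55. The coreceptor genes moved apart. Cd8b1 rose from 9.68 ± 1.65 to 16.3 ± 2.07 CPM, and Cd8a fell from 545 ± 13.6 to 400 ± 9.15 CPM (log2 fold changes 0.75 and -0.45, edgeR adjusted p 6.2e-08 and 2.4e-26). Cd4, whose surface protein the sort selected against, was at 0.934 CPM in Control and 0.373 CPM with IL-33. Its log2 fold change of -1.31 passed (edgeR adjusted p 0.023), but leaving out Control replicate 1 gave 0.0725, Control replicate 2 gave 0.102, IL-33 replicate 2 gave 0.0606 and IL-33 replicate 3 gave 0.125. The lineage factor genes Tbx21 and Gata3 passed as lower by -0.26 and -0.16, and Foxp3, Eomes and Il4 did not pass.

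Most genes of the 2 cell cycle lists were also lower with IL-33. Of 42 S phase genes 37 were lower, 0 were higher and 5 did not pass, with a median log2 fold change of -0.40, and their summed level went from 3140 to 3339 CPM in Control libraries to 2423 to 2499 CPM in IL-33 libraries. Examples are Pcna, the replication clamp, with a log2 fold change of -0.41, and Rrm2, a subunit of ribonucleotide reductase, with -0.62. Past both thresholds were 9 of them, among them Rrm2, Clspn (-0.60), E2f8, Cdc6, Ccne2, Fen1 and Ung (-1.04). The call of Fen1, at 1.73 and 0.909 CPM, was lost with DESeq2 (adjusted p 0.0897), when Control replicate 3 was left out (0.189) and when IL-33 replicate 2 was (0.127). Of 54 G2/M genes 49 were lower and 1 was higher, with a median of -0.39. The smallest adjusted p among them were those of Top2a (-0.57), Ncapd2 (-0.50) and Tpx2 (-0.48), and Pimreg (-0.65) and Nek2 (-0.59) passed both thresholds. Uhrf1 is in the published S phase list and was left out of these 42 genes, so that it is not set against itself. Dnmt1 had a less negative log2 fold change than 25 of the 42 S phase genes, Uhrf1 than 14, Ezh2 than 35, Suz12 and Eed than 37 each and Dnmt3a than 38.

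To set the members beside these genes within a library, each was taken as a percent of the summed CPM of the 42 S phase genes, a quantity chosen after the values had been seen. Dnmt1 was at 9.53%, 9.29% and 9.74% in Control and 9.54%, 9.67% and 9.70% with IL-33, so the groups overlapped on this scale. Uhrf1 remained lower with IL-33, at a mean of 4.07% ± 0.133 against 4.35% ± 0.152, with groups that did not overlap. Ezh2 turned higher, from 2.19% ± 0.0437 to 2.46% ± 0.10. Suz12 (5.57% to 6.57%), Eed (1.71% to 2.02%), Dnmt3a (3.99% to 4.81%), Dnmt3b (0.418% to 0.600%), Tet2 (4.13% to 5.79%) and Tet3 (7.44% to 9.62%) were also higher on this scale, each with groups that did not overlap, as Dnmt3b and Tet2 already were in CPM. Those of Tet1 overlapped. The summed level of the S phase genes itself fell with IL-33, so a gene with unchanged CPM comes out higher on this scale. Tet3, which did not pass in CPM, is an example. Direction here thus says only whether the CPM of a gene fell by more than that sum or not. It adds nothing to the changes in CPM given above, and separation is partly set by the scale. The share of all genes that is higher on it was not computed. A 3 against 3 comparison of this kind cannot go below an exact p of 0.1. The part of the cell cycle genes in the fall of the members was not tested.

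**Figure D4:**
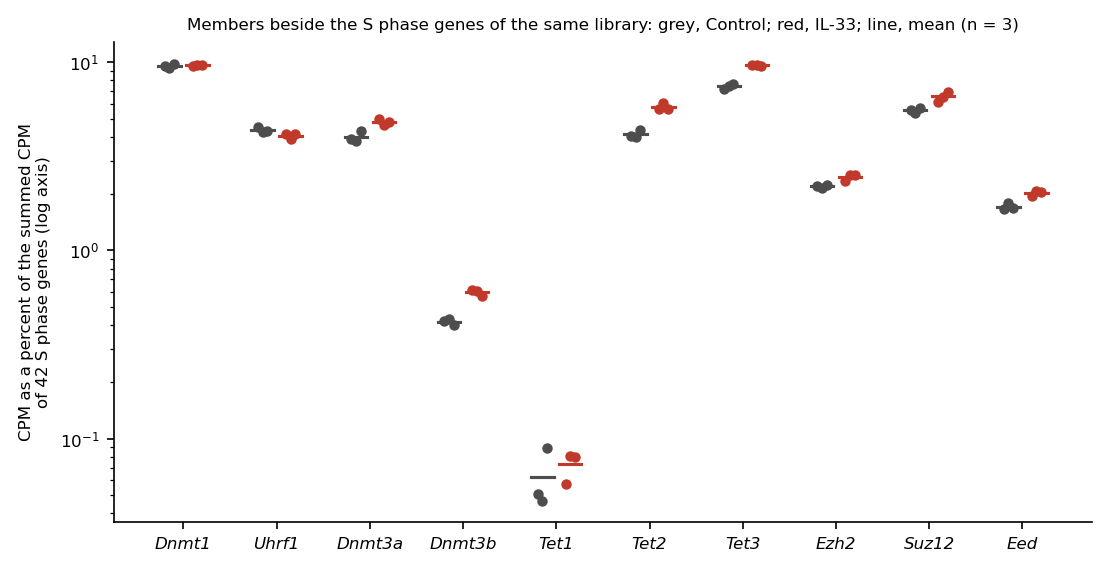
Level of each member as a percent of the summed CPM of 42 S phase genes in the same library (log axis), with grey points for 3 Control libraries, red points for 3 IL-33 libraries and a line for each mean. The points of Dnmt1 overlap between the groups near 10%, those of Uhrf1 are lower with IL-33, and those of the other members except Tet1 are higher. The S phase sum is itself lower with IL-33, which raises a gene of unchanged CPM on this axis.

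The libraries held 20256342 to 22336050 counts. The label of T cells was met by RNA of Cd3d, Cd3e, Cd3g and Thy1 (439, 300, 706 and 1150 CPM in Control), while Cd5 was low, at 6.68 CPM. The 12 T cell identity genes summed to 3982 to 4147 CPM in Control and 4056 to 4223 CPM with IL-33. Of them 2 passed as higher (Cd3g and Cd28), 2 as lower (Lck and Cd5) and 8 did not pass. RNA of Cd8a at 545 CPM and of Klrb1c, the gene of NK1.1, at 33.5 ± 2.57 CPM was present in Control although the sort was negative for both surface proteins. Dendritic and myeloid markers, of which 6 of 13 were tested, summed to 99.4 to 103 CPM in Control and 75.5 to 81.0 CPM with IL-33. Of these, Itgax fell (54.6 to 26.0 CPM), Cd74 fell (5.66 to 3.78 CPM) and H2-Ab1 rose (24.8 to 30.3 CPM, edgeR adjusted p 0.0012), Xcr1 did not pass (11.5 and 12.4 CPM), and Flt3, Lyz2 and H2-Aa had means of at most 0.379 CPM. Natural killer cell markers (3 of 5 tested, mostly Eomes) went from 415 to 418 CPM to 381 to 403 CPM, with Ncr1 at most at 0.106 CPM. Of these 3 only Klrb1c passed, as lower with IL-33 (33.5 to 25.6 CPM, edgeR adjusted p 7.1e-06). Mast cell and basophil markers (3 of 7 tested) went from 38.1 to 41.0 CPM to 26.6 to 31.5 CPM, with Cma1 the highest at 22.01 and 17.9 CPM, and Ms4a2 at 0.172 CPM and 0. Cpa3 fell past both thresholds (10.9 to 7.10 CPM, log2 fold change -0.62, edgeR adjusted p 8.3e-05). Cma1 also passed as lower, and Mcpt8 did not pass. B cell markers (2 of 6 tested) were at 4.79 to 5.70 CPM and 5.35 to 6.35 CPM, with Cd79b the highest at 3.65 CPM in Control. The part of these cells in the results was not tested.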

How the data were processed

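RNA was sequenced from DNT cells in 3 Control and 3 IL-33 libraries, grouped by their labels. For every gene the authors deposited its raw read count in each library. They also deposited 1 column of signal, a mean of normalized counts over all libraries, which is not used here. The submitters' processing notes name Bowtie 0.12.2 and the mouse build mm8, without their roles. The counting program and the use of strand are both not given in the sources used here, and the labels and the methods name different library kits. Positions, exons and gene lengths come from GENCODE M21 (GRCm38), matched by Ensembl identifier for 26086 of the 26128 genes, and promoters from RefSeq (GRCm38.p6). The depth was 20256342 to 22336050 counts per library, where 3 counts correspond to 0.134 to 0.148 CPM, for counting error only.

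Genes were filtered with filterByExpr (minimum count 10, minimum total 15), which removed 0.110% of counts, scaled by TMM and compared by edgeR's quasi-likelihood test (robust, two-sided, no covariates, IL-33 minus Control) with Benjamini-Hochberg adjustment over 14671 genes. The thresholds, an adjusted p of 0.05 and a fold change of 1.5, come from the study, whose methods name no tool for them. CPM used TMM-scaled library sizes, and means and SDs are over n = 3 libraries. RPKM is CPM per kb of all exons or of the longest transcript. Replicates differed by more than sampling noise in every pair (chi-square per gene 2.64 to 3.67). Software used was edgeR 4.0.16, DESeq2 1.42.0 and limma 3.58.1 in R 4.3.3, and Seurat 5.3.0, whose S phase and G2/M lists were matched to mouse by spelling. Alternatives were DESeq2, limma-voom, DESeq2's size factors, no filter, a filter of 1 CPM, a replicate block, a test against the fold change of 1.5, and each library left out in turn.

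The members and lists were chosen with earlier results of these data known. Genes named are the 10 members, and of each pathway list the 3 with the smallest adjusted p and any past both thresholds, with Ezh1, Uhrf2, Dnmt3l and Cxxc4, and the most abundant gene of each marker list. Some genes that this rule covers are not reported here. Others were named after their values were seen.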

Additional observations from a re-analysis of the deposited data

How the results depend on the processing

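Dnmt1, Uhrf1, Ezh2 and Suz12 were lower at an adjusted p under 0.05 in each of the 12 other fits (DESeq2, limma-voom, DESeq2's size factors, no filter, a filter of 1 CPM, the replicate block and 6 that left out a library), while Dnmt3a was in 10 and Eed in 7. The number of members past the threshold was 5 with DESeq2, 6 with the other fits that kept all libraries and 4 to 7 with a library left out. The last range came with 3366 to 3664 of all genes past the adjusted p, and 621 to 719 past both thresholds. The log2 fold change of Tet1 reversed to 0.15 without Control replicate 3 (adjusted p 0.787) and ran down to -0.32 with another library left out. Control replicate 3 held 61 counts of Tet1, beside 31 to 44 in the other libraries, and why it held more was not tested. A test against the fold change of 1.5 (edgeR's glmTreat) called 0 members, 0 also at an unadjusted p under 0.05 with a smallest p of 0.805, and 113 of all genes in place of 4036 past the adjusted p and of 714 past both thresholds, by its construction. The replicate numbers are not said to mark shared mice or days. Deviations of libraries with the same number had correlations of 0.012, 0.0032 and 0.011, and those with different numbers of -0.014 to 0.0029. Taken from the mean of only 3 libraries, such deviations cannot decide whether libraries were paired, and the main fit did not pair them. With the replicate block 6 members, 3798 genes past the adjusted p and 666 past both thresholds were found, with the call of Kdm6a lost (adjusted p 0.0538). The depth leaves Tet1, Cd4, Lhx2 and the germline genes at few counts.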
